A study of Mus musculus with 4 samples.

Results

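Messages of 10 stromal proteoglycan genes were followed in hyperplastic mammary glands with and without a miR-9 knockout. The genes were chosen by symbol, Dcn, Lum, Bgn, Fmod, Ogn, Prelp, Aspn, Podn, Vcan and Hspg2, and all 10 were found among the 25806 genes of the deposited tables. They encode the small leucine-rich proteoglycans decorin, lumican, biglycan, fibromodulin, osteoglycin, PRELP, asporin and podocan, the large hyaluronan-binding proteoglycan versican and the basement membrane proteoglycan perlecan. All glands came from female MMTV-PyMT mice on a mixed C57BL/6 background. In this model a promoter of mouse mammary tumour virus switches on polyomavirus middle T antigen in the mammary epithelium, and hyperplasia precedes carcinoma. There were 2 libraries of glands without the knockout, from littermates, and 2 of glands in which exon 1 of miR-9 was knocked out. The labels name heterozygous animals as the source of the line and do not give the zygosity of the sampled mice, the miR-9 gene deleted, the age, or whether each library is a separate animal, so the p-values below rest on the variation among these libraries alone, and this may be technical. Mature miR-9 was not measured here, so its loss was not checked.

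Proteoglycans are core proteins that carry long sulfated sugar chains, and in the mammary stroma they are made mainly by fibroblasts. The small leucine-rich members bind fibrillar collagen through their horseshoe-shaped repeats and regulate how thick and how regular the fibrils become, and several also bind growth factors such as TGF-beta. Versican swells the loose matrix around ducts and tumours, and perlecan links laminin and collagen networks under epithelium and around vessels and fat cells.

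miR-9 represses messages whose 3′ untranslated region pairs with its seed, bases 2 to 8 of the mature strand. The mature strand made from all 3 mouse miR-9 hairpins is shown with the seed in capitals, because a site complementary to it is what a direct target would carry.
mmu-miR-9-5p: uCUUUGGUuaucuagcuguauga
The miRNA sequence is from RefSeq on GRCm38.p6. The longest annotated 3′ untranslated region of each gene was searched for ACCAAAG, complementary to the seed, and for CCAAAGA, complementary to its first 6 bases and followed by A, on the message strand. ACCAAAGA holds both and was counted once. At least 1 of these was found in 3 of the 10 genes, against 21.6% of 16624 protein-coding genes with such a region, and none of the 10 held the corresponding sites of miR-9-3p. The sites are printed with the matching letters in capitals, from GENCODE M21 transcripts on GRCm38. The site of Lum is at chr10:97572507-97572534 on the plus strand, that of Vcan at chr13:89655334-89655361 on the minus strand and that of Prelp at chr1:133912414-133912441 on the minus strand.
Lum: gccagtaatttgcaagatACCAAAGAaa
Vcan: tatatctgcttttgtttcACCAAAGAaa
Prelp: gcaagattccccacccagcCCAAAGAca
Lum and Vcan carry the 8-base match and Prelp the shorter one. A match is a description of the letters and no evidence of repression.

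Messages of 9 of the 10 genes lay between 1.50 and 4.14 times the control mean in the knockout glands, and Aspn at 1.29 times, but none of the 10 passed the test. Values are normalised read counts, which within each library are whole multiples of 1 step, as reads divided by 1 factor would be. They were tested across all genes as log2(value + 1) with limma, an adjusted p of 0.05 being the threshold. A fold change below is knockout minus control on that log2 scale. Of the 10 members 0 passed, while 0.583% of the 22455 genes tested did, 0.414% as higher. At an unadjusted p under 0.05, 7 members were higher, and so were 10.3% of tested genes. The log2 fold change was positive in all 10 members, as it was in 50.4% of tested genes, with a median over the members of 1.13 and over all tested genes of 0.00. In 8 members both knockout libraries lay above both controls, as they did in 25.5% of tested genes. Control 2 was the lowest library for all 10 members, and for 31.9% of tested genes. Knockout 1 was the highest for 8 members, and for 26% of tested genes. The smallest two-sided p that an exact permutation of 2 libraries against 2 allows is 0.333.

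**Figure D1:**
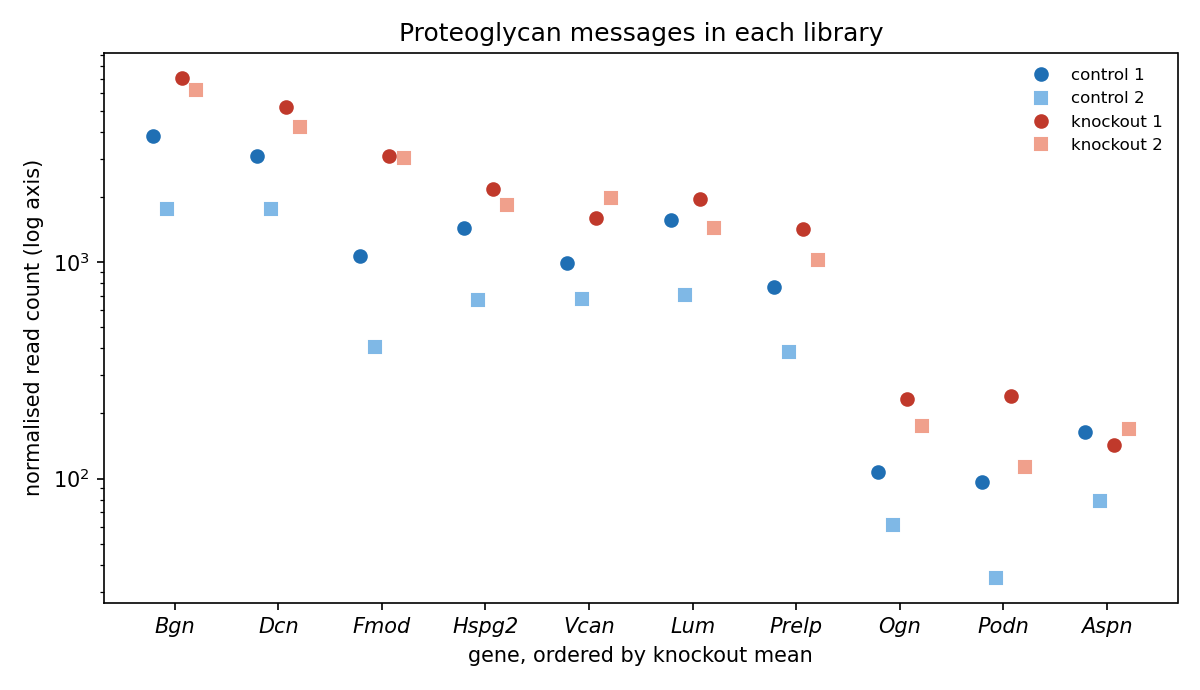
Normalised read count (log axis) of each proteoglycan gene in the 2 control libraries (blue) and the 2 knockout libraries (red), 1 point per library, genes ordered by their knockout mean. The lighter blue squares of control 2 are the lowest point for every gene, and only for Lum and Aspn does a knockout point lie below control 1.

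Decorin, biglycan and asporin form the first group. Dcn (ENSMUSG00000019929, GRCm38 chromosome 10, 97479609 to 97518143) encodes a proteoglycan with a chondroitin or dermatan sulfate chain that coats collagen fibrils and holds TGF-beta. Its normalised read counts were 3077 and 1764 in controls 1 and 2 and 5204 and 4204 in knockouts 1 and 2. Both knockouts were above both controls, at means of 2420 ± 929 and 4704 ± 707 (SD, n = 2 libraries each), a log2 difference of 1.01 ± 0.30 (SE, limma, adjusted p = 0.203). Bgn (ENSMUSG00000031375, chromosome X, 73483602 to 73495933), whose product biglycan binds collagen and is also a ligand of Toll-like receptors, had control counts of 3831 and 1754 against 7073 and 6223 with the knockout. Those groups did not overlap either, and the log2 fold change was 1.36 (SE 0.43, limma adjusted p = 0.257). Aspn (ENSMUSG00000021388, chromosome 13, 49544443 to 49567565) encodes asporin, a relative with a stretch of aspartate residues that restrains TGF-beta and BMP signals. Its counts were 163 and 78.7 in control glands against 143 and 169 in knockout glands, so control 1 lay between the knockouts. The log2 fold change of Aspn was 0.45 (SE 0.36, limma adjusted p = 0.537), with a 95% interval from -0.37 to 1.28, and without control 2 its sign turned, to -0.070.

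Fibromodulin, lumican and PRELP form the second group, of which the first 2 carry keratan sulfate. Fmod (ENSMUSG00000041559, chromosome 1, 134037254 to 134048277) guides collagen fibril growth and cross-linking and had the largest difference of the 10 members. Fmod counts were 1065 and 404 in control glands against 3078 and 3009 in knockout glands. The knockouts were 4.14 times the control mean, at 3043 ± 48.9 against 734 ± 468 (SD, n = 2 each), and the lower knockout lay 1.50 above the higher control on the log2 scale. The log2 fold change of Fmod was 2.21 (SE 0.54, limma adjusted p = 0.200). Without control 1 it was 2.91 (limma adjusted p = 6.1e-04) and without control 2 it was 1.51 (limma adjusted p = 0.00820), both past the threshold with the lone control assumed to vary like the knockouts. Without knockout 1 or 2 it was 2.20 and 2.23 (limma adjusted p = 0.732 and 0.587), in fits in which 0 genes passed, with 3.53% and 5.04% of genes higher at an unadjusted p under 0.05.

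Lum (ENSMUSG00000036446, chromosome 10, 97565128 to 97572703), the collagen-binding lumican known for corneal transparency, had control counts of 1555 and 706 against 1962 and 1435 with the knockout. Knockout 2 lay below control 1, so the groups overlapped, and the log2 fold change was 0.68 (SE 0.46, limma adjusted p = 0.520). Without control 2 the log2 fold change of Lum was 0.11, and without control 1 it was 1.25 (limma adjusted p = 0.0192). Prelp (ENSMUSG00000041577, chromosome 1, 133910304 to 133921414) encodes a protein that joins basement membranes to underlying collagen and binds heparan sulfate. Its counts were 769 and 385 in control glands against 1427 and 1026 in knockout glands, with no overlap and a log2 difference of 1.15 ± 0.39 (SE, limma, adjusted p = 0.253).

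Osteoglycin and podocan were less abundant. Ogn (ENSMUSG00000021390, chromosome 13, 49608046 to 49624501), also called mimecan, had counts of 107 and 60.8 in control glands against 232 and 175 in knockout glands. Both knockouts were above both controls, with a log2 difference of 1.31 ± 0.33 (SE, limma, adjusted p = 0.108). Podn (ENSMUSG00000028600, chromosome 4, 108014791 to 108096445) encodes podocan, a collagen-binding member described in smooth muscle and kidney, and had control counts of 96.6 and 34.9 against 242 and 113 with the knockout. The groups of Podn came within 0.22 of each other on the log2 scale, and its knockouts differed by 1.09, the widest gap between the knockouts among the members. Its log2 fold change was 1.49 (SE 0.56, limma adjusted p = 0.245).

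The 2 large proteoglycans followed. Vcan (ENSMUSG00000021614, chromosome 13, 89655312 to 89742509), whose product versican binds hyaluronan and is cleaved by ADAMTS proteases, had control counts of 991 and 675 against 1594 and 1970 with the knockout. With Aspn it was 1 of 2 members in which knockout 2, not knockout 1, was highest. Vcan had the smallest standard error and the lowest p of the 10, with means of 833 ± 224 and 1782 ± 266 (SD, n = 2 each) and a log2 difference of 1.11 ± 0.20 (SE, limma, adjusted p = 0.0661). Hspg2 (ENSMUSG00000028763, chromosome 4, 137468769 to 137570630), the perlecan gene, had control counts of 1442 and 670 against 2164 and 1839 with the knockout. The groups of Hspg2 did not overlap, and its log2 fold change was 1.02 (SE 0.42, limma adjusted p = 0.327), with a 95% interval from -0.19 to 2.23.

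**Figure D2:**
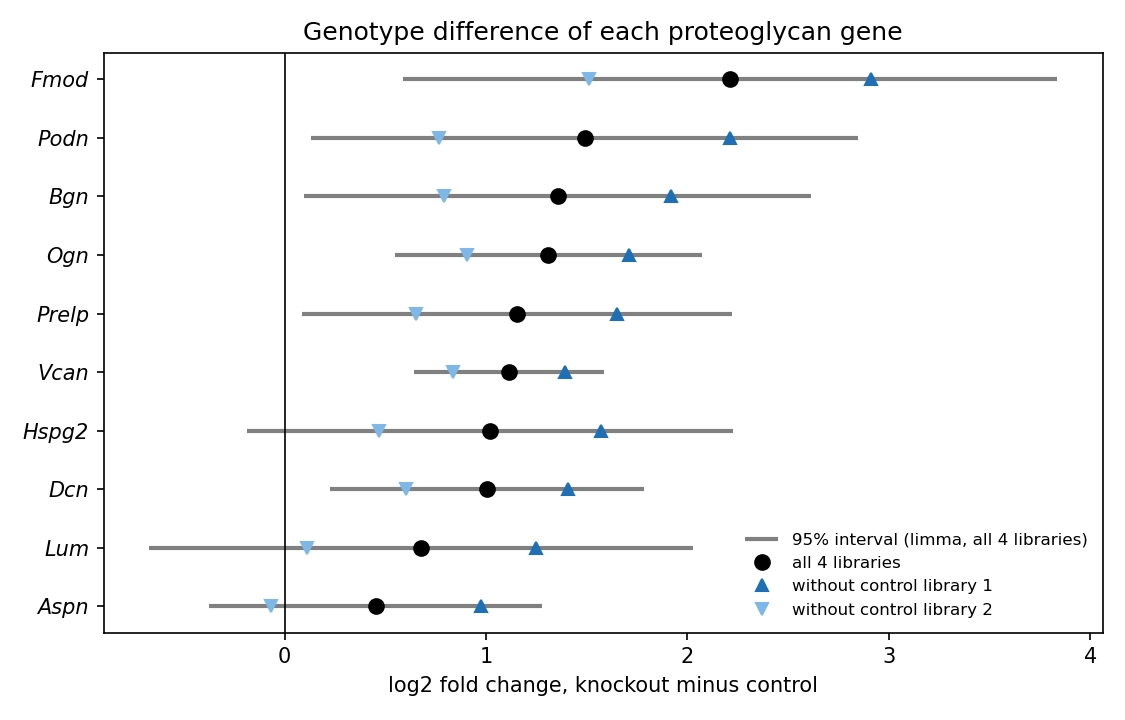
Log2 fold change (knockout minus control, horizontal axis) of each proteoglycan gene with all 4 libraries (black, with the limma 95% interval in grey) and with control 1 or control 2 left out (blue triangles). Fmod lies highest at 2.21 and Aspn lowest at 0.45, and each gene moves down when control 2 is left out and up when control 1 is.

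How many members passed depended on which control was kept. Without control 1 all members but Aspn passed, 9 of the 10, with log2 fold changes of the 9 from 1.25 for Lum to 2.91 for Fmod, and 6.86% of all genes tested passed as higher in that fit. Without control 2 only Fmod passed, against 0.612% of genes tested as higher, and the median over the members was 0.71. Without knockout 1 the median over the members was 0.93, and without knockout 2 it was 1.27. In each of these fits the group left with 1 library was assumed to vary like the other group. Control 2, the control kept when control 1 was left out, was the lowest library for all 10 members.

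Fibroblast markers, none of them a member, also differed between the libraries. Of 17 measured, 0 passed the threshold and their median log2 fold change was 0.79; 3 were higher at an unadjusted p under 0.05. That median was 0.28 without control 2, 0.49 without knockout 1 and 1.28 without control 1, where 9 of the 17 passed as higher. Their summed normalised read count was 38347 and 20215 in controls 1 and 2 and 59825 and 38335 in knockouts 1 and 2, with no marker at 0. The mean centred log2 level, each gene set to 0 over the 4 libraries, was 0.06, -0.85, 0.74 and 0.05 for the fibroblast markers and -0.07, -1.11, 0.72 and 0.46 for the 10 members. Control 2 was lowest and knockout 1 highest in both, while control 1 and knockout 2 were level for the fibroblast markers and apart for the members. The part of the fibroblast markers in the proteoglycan differences was not tested. In bulk tissue, more cells of a type and more message per cell cannot be told apart.

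Taken per 1000 counts of the fibroblast markers, a ratio chosen after these values were seen, 5 members had both knockouts above both controls and 5 overlapped. Both knockouts were above both controls on this ratio for 7.01% of tested genes. Fmod stood at 27.8 and 20.0 in control glands against 51.5 and 78.5 in knockout glands on this ratio. Bgn stood at 99.9 and 86.7 in control glands against 118 and 162 in knockout glands. Prelp, Ogn and Podn were the other members without overlap, the values of Prelp being 20.0 and 19.0 in control glands against 23.8 and 26.8 in knockout glands. Those of Ogn were 2.79 and 3.01 in control glands against 3.87 and 4.56 in knockout glands. Dcn, at 80.2 and 87.2 in control glands against 87.0 and 110 in knockout glands, overlapped by a narrow margin, and for Vcan and Hspg2 too knockout 1 lay inside the control range. For Lum knockout 1 had the lowest ratio of the 4 libraries, 32.8, and for Aspn likewise, 2.39.

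**Figure D3:**
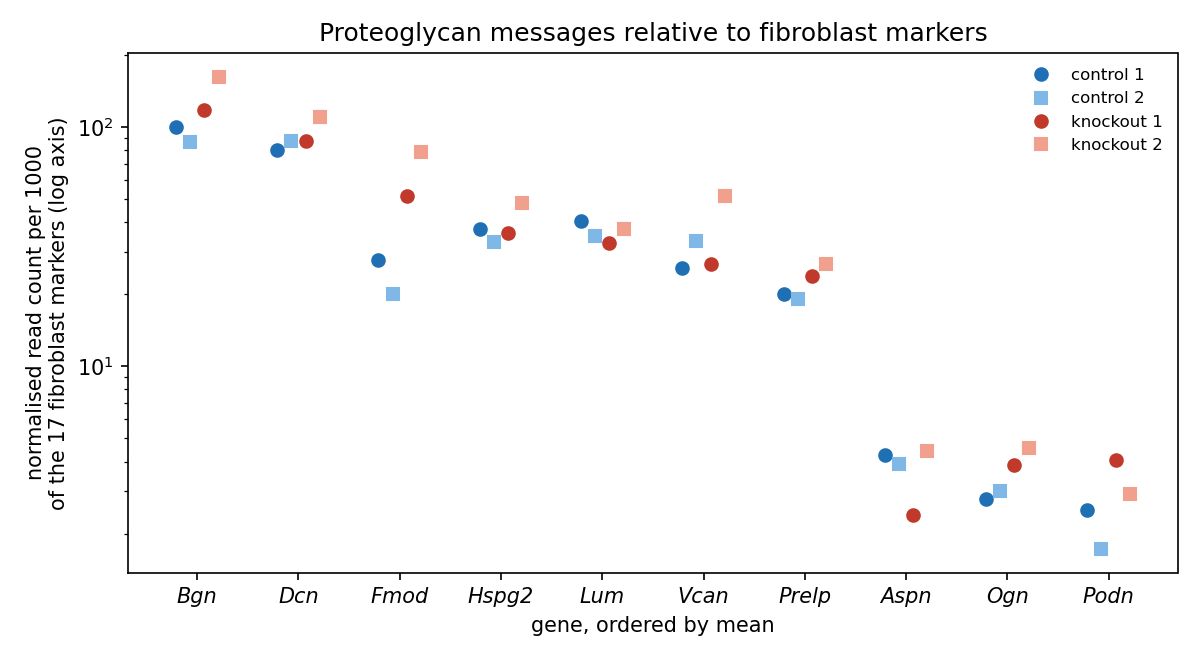
Normalised read count of each proteoglycan gene per 1000 counts of the 17 fibroblast markers (log axis), 1 point per library, controls in blue and knockouts in red. Fmod shows the widest gap between the groups, with 51.5 as its lower knockout and 27.8 as its higher control, while Lum, Dcn, Aspn, Vcan and Hspg2 overlap.

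Other cell types of the gland were read from their markers, and their part in the proteoglycan differences was not tested. Endothelial markers had a median log2 fold change of 0.62 over 10 genes, adipocyte markers 0.99 over 10, basal and myoepithelial markers 0.90 over 9 and pericyte and vascular smooth muscle markers 0.38 over 9, with 0 genes of these lists past the threshold in limma and 3, 4, 4 and 0 of them, in that order, higher at an unadjusted p under 0.05. Single libraries moved these medians: the endothelial one was 0.19 without control 2, 0.40 without knockout 1 and 1.15 without control 1, and the adipocyte one was 0.32 without knockout 1, 0.64 without control 2, 1.61 without control 1 and 1.83 without knockout 2. Without control 2 the basal median was 0.57 and the pericyte and vascular one 0.12, and without control 1 the pericyte and vascular one was 0.63. Without control 1, 4 endothelial, 1 adipocyte, 5 basal and 4 pericyte and vascular genes passed as higher. Summed adipocyte counts ran from 8371 to 15585 in the controls and from 11959 to 33070 in the knockouts. Endothelial sums ran from 1248 to 2311 in the controls and from 2445 to 3146 in the knockouts. Pericyte and vessel muscle sums ran from 4994 to 9785 and from 13691 to 14339, and basal sums from 8969 to 17288 and from 26251 to 29951. Luminal markers went against these, with a median of -0.24 over 11 genes and sums of 149818 to 166824 in the controls and 141550 to 143216 in the knockouts; Krt19, a keratin gene, rose from 6696 ± 1145 to 13188 ± 1673 (limma adjusted p = 0.0351). Krt19 missed the threshold without control 2 and without either knockout. It also missed it with a pseudocount of 0.1 (limma adjusted p = 0.081) and with a filter of a mean of at least 10 (0.0643). Markers of macrophages had a median of 0.48 over 8 genes, with 0 past the threshold in limma and 5 higher at an unadjusted p under 0.05. Macrophage sums ran from 9908.9 to 11885 in the controls and from 13994.5 to 16743.5 in the knockouts. Their median was 0.36 without control 2 and 0.56 without control 1. Markers of Schwann cells, the glia of peripheral nerves, had a median of 0.59 over 8, with 0 past the threshold and 4 higher at that unadjusted p. Schwann sums overlapped, however, at 10562 to 11051 in the controls and 10439 to 11273 in the knockouts. Markers of cartilage and tendon, tissues rich in fibromodulin and PRELP, summed to 438 to 486 in controls and 461 to 483 in knockouts, with Chad, a small leucine-rich gene, among them. Their median log2 fold change was 0.49 over 7 genes, and 0.02 over the 4 with a mean of at least 10. It was 0.07 without knockout 2, and 1.07 over 6 genes without knockout 1. Of the cartilage and tendon markers, Tnmd and Matn3 were at 0 in at least 1 library. Skeletal muscle markers summed to 150 to 334 in controls and 63.7 to 70.9 in knockouts, with Myh1 and Myh4 at 0 in at least 1 library. No marker of the remaining cell type lists was at 0 in any library.

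**Figure D4:**
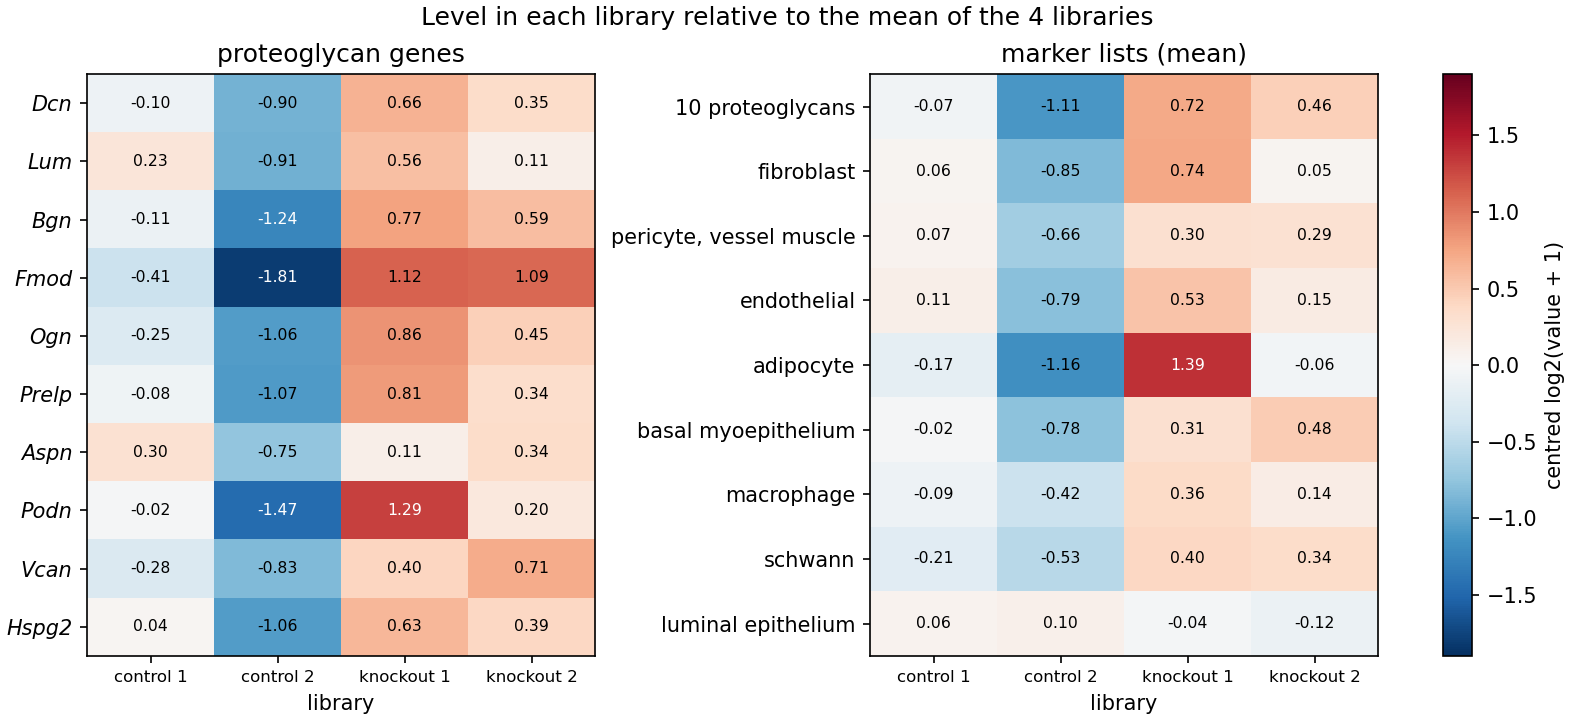
Centred log2(value + 1) in each library (columns) for the 10 proteoglycan genes (left) and as a mean over the members and over marker lists of cell types (right), red above and blue below the mean of the 4 libraries. Control 2 is the lowest column for each gene and for each plotted list except the luminal one, the skeletal muscle and cartilage lists not being plotted, and Fmod spans the widest range, from -1.81 to 1.12.

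Between genes, levels were compared per kb of length, scaled to a library total of 1000000. The tables' own gene length is the union of all annotated exons for all 10 members, so the length of the protein-coding transcript with the longest 3′ untranslated region was used as well. Per kilobase of that transcript, Dcn stood at 84.0 ± 32.4 in the controls and 167 ± 26.4 in the knockouts and Bgn at 70.4 ± 37.2 and 172 ± 16.9 (SD, n = 2 each). These 2 lay above the other members in both groups, and did not differ from each other beyond their spread. Lum at 28.2 ± 15.0 and Fmod at 14.4 ± 9.17 came next in the controls, within their spread of each other, while in the knockouts Fmod at 61.0 ± 1.44 stood above Lum at 43.4 ± 9.85. Prelp followed at 9.73 ± 4.60 in the controls and 21.2 ± 5.06 in the knockouts. Hspg2, Vcan, Aspn and Ogn lay between 1.99 and 4.54 in the controls, within the spread of the 2 controls for neighbours in the order, and between 4.23 and 8.96 in the knockouts. Podn was lowest, at 1.26 ± 0.84 and 3.50 ± 1.83. With the tables' length of 5838 bases in place of 1758, Dcn came to 25.3 ± 9.74 in the controls, below Lum at 28.2, and to 50.4 ± 7.95 in the knockouts, below Fmod at 57.6 ± 1.36, so the order of the abundant members depended on the length used.

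Of the 8 small leucine-rich members, 6 sit in 3 tight gene clusters. Dcn and Lum lie 47.0 kb apart on chromosome 10, beside Kera and Epyc. Epyc, the epiphycan gene known from cartilage, had control counts of 31.8 and 7.97 against 19.9 and 7.77 with the knockout, with the groups overlapping, and Kera, the corneal keratocan gene, was listed at 0 in both controls and at 0.99 and 1.94 in the knockouts, below the filter. Fmod and Prelp lie 116 kb apart on chromosome 1, with Optc, the opticin gene, next to Prelp. Optc was low, at 7.19 and 1.99 in control glands against 21.9 and 26.2 in knockout glands, with a log2 difference of 2.33 ± 0.65 (SE, limma, adjusted p = 0.128). Aspn and Ogn lie 40.5 kb apart on chromosome 13 with Ecm2 and Omd, which encodes osteomodulin, in the same 120 kb. Omd had control counts of 41.1 and 30.9 against 54.7 and 42.7 with the knockout, and Ecm2 had control counts of 40.1 and 47.8 against 68.6 and 53.4 with the knockout. Both neighbours had no overlap between the groups, as 25.5% of tested genes had with the knockouts higher, while Aspn between them overlapped. The log2 fold changes were alike, at 0.43 for Omd, 0.46 for Ecm2 and 0.45 for Aspn (limma adjusted p = 0.582, 0.518 and 0.537). Vcan lies on chromosome 13 too, 5916426 bases from the Mir9-2 hairpin.

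The starts of Fmod, with the largest difference, Bgn, with the highest mean count, and Aspn, with the smallest difference, are printed to show the sequence at the start of genes at both ends of the range of differences. Each runs from 250 bases before to 50 after the annotated start (RefSeq, GRCm38.p6), and capitals mark the motifs searched on both strands. The coordinates are chr1:134037004-134037303 for Fmod, chrX:73483351-73483650 for Bgn and chr13:49544193-49544492 for Aspn, all on the plus strand.
Fmod: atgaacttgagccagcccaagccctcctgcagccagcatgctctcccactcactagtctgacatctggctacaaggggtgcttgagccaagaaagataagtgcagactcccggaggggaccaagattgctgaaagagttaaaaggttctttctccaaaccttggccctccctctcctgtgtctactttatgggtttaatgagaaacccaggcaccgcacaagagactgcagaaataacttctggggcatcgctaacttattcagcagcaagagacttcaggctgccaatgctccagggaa
Bgn: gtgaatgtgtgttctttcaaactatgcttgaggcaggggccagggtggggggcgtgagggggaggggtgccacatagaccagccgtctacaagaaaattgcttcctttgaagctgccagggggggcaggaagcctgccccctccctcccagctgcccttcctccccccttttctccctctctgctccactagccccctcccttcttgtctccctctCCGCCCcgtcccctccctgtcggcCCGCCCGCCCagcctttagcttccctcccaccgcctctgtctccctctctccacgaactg
Aspn: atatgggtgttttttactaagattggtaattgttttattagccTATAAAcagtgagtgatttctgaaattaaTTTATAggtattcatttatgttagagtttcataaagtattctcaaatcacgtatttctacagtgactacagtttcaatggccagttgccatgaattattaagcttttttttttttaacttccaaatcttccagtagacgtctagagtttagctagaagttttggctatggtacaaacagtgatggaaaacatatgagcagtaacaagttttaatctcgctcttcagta
Of the 10 members, 8 had a promoter in the table. The GC box GGGCGG was found in 4 of the 8 and in 35.7% of 32851 promoters of the same length, and in Bgn a pair of these matches overlap. TATAAA, the letters of the TATA box, was found anywhere in the window in 2 of the 8, Aspn and Ogn, and in 13.6% of all. In both genes every match lay nearer the upstream end of the window than the annotated start. These are matches of letters, and whether they act as TATA boxes was not tested. GGAATG, the core bound by TEAD factors, was found in 1, Ogn, and in 14.7% of all, and the AP-1 motif TGANTCA in 0, against 7.81% of all. Fmod held none of the 4 motifs in this window.

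The other small leucine-rich genes, beside the members, had a median log2 fold change of 1.09 over 9 tested genes. Of the 9, 0 passed in limma and 4 were higher at an unadjusted p under 0.05. Chad, which encodes the collagen-binding protein chondroadherin, had control counts of 52.4 and 29.9 against 108 and 167 with the knockout (limma adjusted p = 0.0850). Its relative Chadl had control counts of 171 and 75.7 against 310 and 399 with the knockout (limma adjusted p = 0.106). Both genes had no overlap between the groups.

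Among 16 other matrix proteoglycans and link proteins, Bcan, the gene of the brain proteoglycan brevican, rose, and the median was 0.34. Its counts were 28.8 and 5.98 in control glands against 624 and 580 in knockout glands, a log2 difference of 5.39 ± 0.67 (SE, limma, adjusted p = 0.0473). Col18a1, which encodes a basement membrane collagen with heparan sulfate chains, had control counts of 685 and 677 against 1031 and 1093 with the knockout, a log2 difference of 0.64 ± 0.11 (SE, limma, adjusted p = 0.0570). Among 15 cell surface proteoglycans the median was 0.44 and 0 passed in limma, with 6 higher at an unadjusted p under 0.05. The glypican gene Gpc6 had control counts of 127 and 61.8 against 288 and 284 with the knockout, a log2 difference of 1.67 ± 0.34 (SE, limma, adjusted p = 0.0720). Gpc3, another glypican gene, had control counts of 85.3 and 23.9 against 198 and 219 with the knockout.

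The enzymes that build the sugar chains were read from 3 lists. For the linker, chondroitin and dermatan sulfate enzymes the median was 0.17 over 21 genes, with 0 past the threshold in limma, 3 higher and 2 lower at an unadjusted p under 0.05. Chsy1, a chondroitin polymerase, had a log2 difference of -0.57 ± 0.11 (SE, limma, adjusted p = 0.0653), and Chst11, a chondroitin 4-O-sulfotransferase, 1.03 (SE 0.23, limma adjusted p = 0.0890). For heparan sulfate enzymes the median was 0.11 over 23 genes, with 0 past the threshold in limma, 4 higher and 1 lower at an unadjusted p under 0.05. Extl1, of the exostosin family, and the 2-O-sulfotransferase gene Hs2st1 differed by 1.31 and -0.50 on the log2 scale, with limma adjusted p-values of 0.0580 and 0.0707. In the keratan sulfate list of 9 genes, with a median of 0.04, the galactose sulfotransferase gene Chst1 rose. Chst1 counts were 101 and 67.8 in control glands against 343 and 245 in knockout glands, a log2 difference of 1.80 ± 0.29 (SE, limma, adjusted p = 0.0476). Chst1 missed the threshold without control 2 (limma adjusted p = 0.0718), with a pseudocount of 0.1 (0.0903) and with a filter of a mean of at least 10 (0.0706). Chst2, which sulfates N-acetylglucosamine, had a log2 difference of -1.08 ± 0.20 (SE, limma, adjusted p = 0.0641). Of 10 hyaluronan genes 0 passed in limma (median 0.32; 2 higher and 1 lower at an unadjusted p under 0.05), Tmem2, a cell surface hyaluronidase, having 0.67 (SE 0.13, limma adjusted p = 0.0696). Without control 2 the hyaluronan median was -0.09 and the keratan sulfate median -0.14, so their sign depended on that library, and without control 1 the keratan sulfate median was -0.12.

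Among the partners of the proteoglycans, fibrillar collagens and their associates had a median log2 fold change of 0.79 over 19 genes. That median was 0.28 without control 2, 0.49 without knockout 1 and 1.28 without control 1. The fibroblast markers also include fibrillar collagen genes and had nearly the same medians, so this list is not a separate reading from theirs. In this list Col11a1, a chain that nucleates fibrils, fell from 4253 ± 326 to 1815 ± 192 (SD, n = 2 each), a log2 difference of -1.23 ± 0.12 (SE, limma, adjusted p = 0.00923). Col14a1, a collagen that sits on fibril surfaces and binds decorin, had control counts of 583 and 363 against 1546 and 1224 with the knockout, a log2 difference of 1.58 ± 0.24 (SE, limma, adjusted p = 0.0552). Basement membrane partners of perlecan had a median of 0.81 over 12 genes, with 0 past the threshold in limma and 6 higher at an unadjusted p under 0.05. This median was 0.35 without control 2 and 1.30 without control 1, where 8 passed as higher. Lama1, a laminin chain, had control counts of 280 and 142 against 506 and 698 with the knockout (limma adjusted p = 0.0972). Of 14 proteases and inhibitors that act on proteoglycans, Adamts1, which cleaves versican, fell from 1021 ± 64.4 to 524 ± 3.61, a log2 difference of -0.96 ± 0.12 (SE, limma, adjusted p = 0.0228). Of Bcan, Chst1, Col11a1 and Adamts1, none passed without knockout 1 or 2, while Bcan, Col11a1 and Adamts1 passed without control 1 and without control 2. With a pseudocount of 0.1 Bcan and Adamts1 missed the threshold (limma adjusted p = 0.0683 and 0.0558), and with a filter of a mean of at least 10 Bcan did (0.0579), whereas Col11a1 passed under both. Timp3, an inhibitor of ADAMTS enzymes held in the matrix by sulfated sugar chains, had control counts of 1136 and 588 against 2905 and 2651 with the knockout, a log2 difference of 1.76 ± 0.34 (SE, limma, adjusted p = 0.115). Among 17 ligands and receptors of proteoglycans the median was 0.27 and 0 passed in limma (4 higher and 3 lower at an unadjusted p under 0.05), with Dag1, the dystroglycan gene, at 0.66, Tgfbr2 at 0.49 and Tgfb3 at -0.34.

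Beside these lists, all 43 collagen chains had a median log2 fold change of 0.61, with 1 higher, Col4a3, and 1 lower, Col11a1, past the threshold. Col4a3 missed it without control 2 and without either knockout. It also missed it with a pseudocount of 0.1 (limma adjusted p = 0.081) and with a filter of a mean of at least 10 (0.0586). The collagen median was 0.35 without control 2 and 1.00 without control 1. The 41 metalloproteinases, ADAMTS proteases and TIMPs had a median of 0.21, with 0 higher and 1 lower. The summed count of the 10 proteoglycans per summed collagen chain count was 0.190 and 0.135 in control glands against 0.277 and 0.285 in knockout glands, so the groups did not overlap. This was not particular to collagen. Per summed fibroblast marker count the ratio was 0.342 and 0.323 against 0.386 and 0.526. Per endothelial count it was 5.67 and 5.23 against 7.35 and 8.25, and per luminal count 0.087 and 0.039 against 0.163 and 0.141. Against adipocyte markers the groups overlapped. The members' mean centred log2 level less theirs was 0.10 and 0.05 in control glands against -0.67 and 0.52 in knockout glands. Summed counts weigh the abundant members most, and gene by gene 5 members overlapped per fibroblast marker count. No test of these differences was made.

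Of 11729 other genes with a mean normalised read count of at least 100, those closest to the members' mean profile over the 4 libraries were Icam1, Cpeb1, Olfm1, Sparc and Pcolce. The root mean square distance of the centred log2 values ran from 0.027 for Icam1 to 0.038 for Pcolce, against 0.077 for Prelp, the closest member, and 0.54 for Fmod, the farthest. Sparc, a collagen-binding matricellular protein, had control counts of 14161 and 7097 against 23949 and 21096 with the knockout. Pcolce, an enhancer of procollagen processing, had control counts of 448 and 218 against 817 and 632 with the knockout. With 4 libraries many genes share such an order, and likeness here is a description only.

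The genes with a miR-9-5p site shown above, Lum, Vcan and Prelp, had log2 fold changes of 0.68, 1.11 and 1.15, and the 7 without one ran from 0.45 for Aspn to 2.21 for Fmod. The ranges overlap, with Fmod, Podn, Bgn and Ogn above all 3 genes that have a site and Aspn below all 3. Dcn at 1.01 and Hspg2 at 1.02 lay between Lum and Vcan.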

How the data were processed

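RNA of whole mammary glands was made into Illumina TruSeq libraries for a NovaSeq instrument, per the labels' protocols. The submitters' processing notes list Bowtie 0.12.2 beside the builds hg38, GRCm38 and mm10 without saying what each was for. How reads were counted, with or without strand, and how they were scaled is not given in the sources used here. The deposited values are a normalised signal: in each library all are whole multiples of 1 step (0.9712 to 1.0274, relative tolerance 1e-04), as read counts divided by 1 factor would be. In control 2 and knockout 1 the step was near 1, at 0.9964 and 0.9949. Reads were not taken as recovered, and no count-based test was run. The values summed to 15904798 to 16418668 per library, with 22427 to 23319 genes above 0. The deposited gene length is an other kind of value, in bases, and the deposited coordinates matched GENCODE M21 for all 10 members.

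Genes with a value of at least 1 in at least 2 libraries (22455) were log2 transformed with a pseudocount of 1 and fitted by genotype alone in limma 3.58.1 (R 4.3.3), with moderation by trend and robust. P-values were Benjamini-Hochberg adjusted over all of them, and the procedure was tested on simulated data. The simulated replicates varied less than those of the members, whose median spread was 0.559 on the log2 scale. That run therefore does not show how many real differences would be found here. The members, lists and tests were chosen with earlier results of these data known. Named genes are all members, up to 3 of each list by lowest p, any list gene past the threshold and the 5 of most like profile; Epyc, Kera, Omd, Ecm2, and the markers at 0 were named after their values were seen. Alternatives were 2 pseudocounts, 2 filters, 2 scalings, voom weights, a replicate block and leaving out each library.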

Additional observations from a re-analysis of the deposited data

How the results depend on the processing

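All 10 members had a positive log2 fold change under each of the 12 alternatives, except Aspn without control 2; with single libraries left out, Aspn ran from -0.070 to 0.97. Their median was 1.12 to 1.17 under the pseudocounts, filters, scalings, voom weights and the replicate block and 0.71 to 1.61 when single libraries were left out. The count of members past the threshold was 0 in all these except 4 with the replicate block and 0 to 9 with a library left out. Over all genes the count past the threshold was 131, and it was 33 and 257 with pseudocounts of 0.1 and 10, 332 with no filter, 69 with a mean of at least 10, 257 with quantile normalisation, 367 with the replicate block and 0 to 2361 with a library left out. Of the 251 tested genes of the 21 lists, 5 passed, and 1 and 10 did so with pseudocounts of 0.1 and 10, 15 with no filter, 2 with a mean of at least 10, 10 with quantile normalisation, 27 with the replicate block and 0 to 90 with a library left out. The cause was not tested.

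Controls and knockouts share the numbers 1 and 2 in the labels, which do not say that a number marks a shared litter or day. The deviations of same-numbered libraries correlated at r = 0.118 across genes. In the fit with the replicate block Dcn, Bgn, Fmod and Prelp passed (limma adjusted p = 0.0381, 0.0489, 0.0417 and 0.0380), where 1.63% of genes did, 1.35% as higher; that fit has 1 residual degree of freedom per gene before moderation. With 2 libraries per group, differences such as that of Lum were not detectable beside the gap between the controls.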
